A study of Mus musculus with 8 samples.

Results

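The junctions described here are joinings of a Cas9-broken end in Supt16 to sequence close to the break itself. Supt16 encodes a subunit of FACT, a histone chaperone that takes nucleosomes apart and rebuilds them during transcription. Members were all distinct junctions of the 4 site 2 on-cut lists that lay on chromosome 14 between 6 and 40000 bp from the bait end, position 52181662 (mm10). A junction is the 5′ end of an aligned read with its strand, and reads with the same position and strand count as 1. The rule gave 538 junctions among 11310 distinct junctions in the whole series, at 445 different positions and strands. They divided into 36 in the 10Q library, 103 in the 92Q library, 396 in the sgRNA-only library and 3 in the non-targeting library.

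The cells were Neuro-2a, a mouse neuroblastoma line, collected 48 h after transient transfection and sorted for GFP. The 10Q and 92Q libraries came from cells given plasmids for ataxin-7 with 10 or 92 glutamines, spCas9 and the site 2 sgRNA. The sgRNA-only library (titled posCtrl) received spCas9 and the site 2 sgRNA without an ataxin-7 plasmid. The non-targeting library received spCas9 and a non-targeting sgRNA, and was read from the same bait primer. All 4 therefore carried spCas9, and each was 1 library made from a pool of 3 transfections, so every test below compares the junctions of 2 libraries and not the conditions. The 10Q and 92Q proteins were expressed from plasmids in cells that keep their own ataxin-7 gene, and their levels were not analysed here.

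A Cas9 break leaves a pair of blunt or nearly blunt ends. End joining can seal them at once or after nucleases have removed bases, and the lost stretch then appears as a deletion. A broken end can also join the corresponding end of the sister chromatid or the homologous chromosome, or a more distant stretch of the same arm. The strand and side of a junction show where the read continues and do not by themselves identify the partner. Translocation sequencing reads out of a fixed primer beside the break (the bait) into whatever follows (the prey).

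The designed sequences below set where the break falls and from which side it is read. Capitals in the sgRNA target mark the 3 bases that lie between the cut made by this enzyme and the end that adjoins the PAM.
Site 2 sgRNA target: ctcgcagccctccaccgTAA
Site 2 bait primer: ggtttcccctccgctcttta
Both are 20 bases long and come from the study's own protocol. They were not placed on the genome here, so distances are counted from the bait end and not from the cut. The bait end is where uncut DNA begins to be read: in the non-targeting library 917 of 932 on-cut reads started there, on the plus strand. Reading from the bait thus runs upward, towards higher coordinates. Supt16 (52160419 to 52197239) lies on the minus strand, so higher coordinates lead towards its start, 15577 bp above the bait end, and lower coordinates towards its end, 21243 bp below.

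With the targeting sgRNA, most on-cut reads began at a member junction, and without it almost none did. Member junctions took 40 of 46 on-cut reads in the 10Q library (87.0%, exact Clopper-Pearson 95% interval 73.7 to 95.1), 172 of 197 in the 92Q library (87.3%, 81.8 to 91.6) and 1199 of 1341 in the sgRNA-only library (89.4%, 87.6 to 91.0). In the non-targeting library they took 3 of 932 (0.322%, 0.0664 to 0.938). All remaining on-cut reads lay within 5 bp of the bait end: 6, 25, 142 and 929 in the same order. The intervals of the targeted libraries overlapped, and the non-targeting library stood far below them. Intervals on reads cover counting error only, since no molecular identifiers are recorded and several PCR reads may stem from 1 molecule.

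As a share of all reads, on-cut and off-cut together, member junctions took 33.9% of 118 in the 10Q library, 56.4% of 305 in the 92Q library and 78.5% of 1527 in the sgRNA-only library. The order of these shares is also the order of the libraries by depth.

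The inner edge of the window fell in a sparse stretch. Just inside it, at 6 bp, stood 1 read in the 92Q library and 2 in the sgRNA-only library. Just outside, the sgRNA-only library had 3 reads at 5 bp and 18 at 3 bp, and the 92Q library had 3 at 3 bp, while the 10Q library had none between 0 and 18 bp. The farthest member lay at 33393 bp, below the outer edge.

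**Figure D1:**
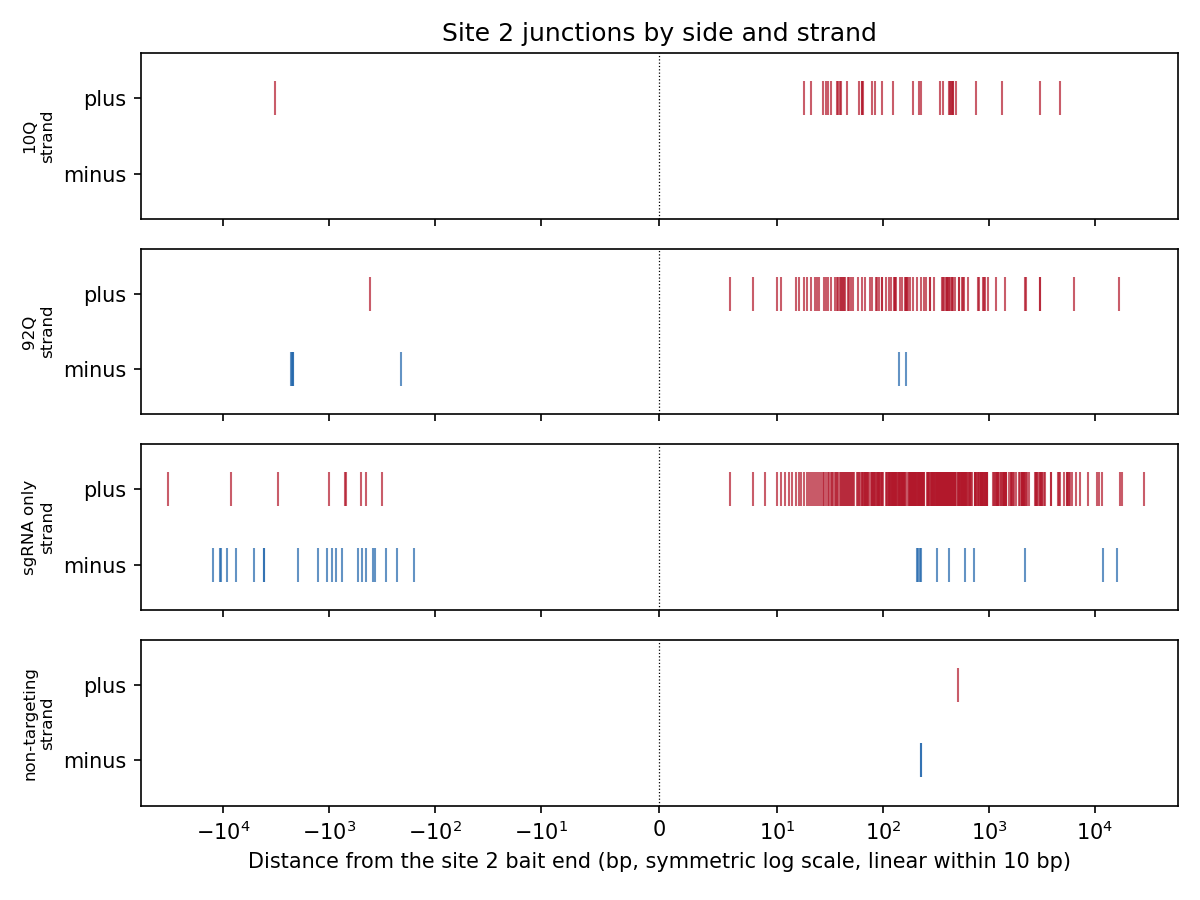
Each tick is 1 distinct junction of the site 2 on-cut lists, placed by signed distance from the bait end in bp (symmetric log axis, linear within 10 bp) and by strand, in 4 panels for the 4 libraries. Plus-strand junctions above the bait end make up 35 of 36 junctions in 10Q cells, 95 of 103 in 92Q cells and 354 of 396 in sgRNA-only cells, against 1 of 3 in the non-targeting library.

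Junctions on the plus strand above the bait end dominated every targeted library. In these the read resumes in the same direction farther up the gene, as in a deletion. The distance is the sequence passed over from the bait end. It need not equal the deleted length, since how far the bait end lies from the cut was not determined. They made up 97.2% of junctions in 10Q cells (85.5 to 99.9), 92.2% in 92Q cells (85.3 to 96.6) and 89.4% in sgRNA-only cells (85.9 to 92.2). Their median distance was 97 bp in 10Q cells, 150 bp in 92Q cells and 331.5 bp in sgRNA-only cells. The farthest lay 4648, 16807 and 28874 bp above the bait end.

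The second class ran downward from the bait side, on the minus strand at lower coordinates, as when a bait-side end joins another bait-side end in inverted orientation. It held 0 junctions in 10Q cells (0 of 36, exact upper bound 9.74%), 5 in 92Q cells (4.85%, 1.59 to 10.97) and 22 in sgRNA-only cells (5.56%, 3.51 to 8.29). The sgRNA-only junctions of this class lay between 159 and 12438 bp below the bait end, with a median of 997 bp. In the 92Q library 4 of the 5 lay within 120 bp of each other, between 2203 and 2323 bp below, and the sgRNA-only library had 0 junctions in that stretch. These 4 were singled out after their values were seen. Each had 1 read, 2 of them of mapping quality 30 or more.

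Joinings that point back towards the break were rare. Minus-strand junctions above the bait end numbered 0, 2 and 11 in the 10Q, 92Q and sgRNA-only libraries, and plus-strand junctions below it 1, 1 and 9. Together, outward junctions (plus strand above, minus strand below) made up 97.2% in 10Q cells, 97.1% in 92Q cells and 94.9% in sgRNA-only cells. Of the inward ones, 0 of 1, 1 of 3 and 11 of 20 included an alignment with a mapping quality of at least 30, against 25 of 35, 63 of 100 and 287 of 376 of the outward ones. This difference was not tested, and the inward numbers are small.

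The non-targeting library shows what the same window holds without a cut. Its 3 junctions each had 1 read. A pair of minus-strand junctions lay 227 and 230 bp above the bait end, neither with a mapping quality of 30 or more in that library, and 1 plus-strand junction lay at 505 bp. The sgRNA-only library also held the positions at 230 bp (1 read) and 505 bp (5 reads), and the 10Q and 92Q libraries held none of the 3.

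No difference in strand or side between the targeted libraries passed the test. The plus-strand share was 100% in 10Q cells (36 of 36), 93.2% in 92Q cells (96 of 103) and 91.7% in sgRNA-only cells (363 of 396). The 92Q share lay below the 10Q share by 6.80 percentage points, with a 95% interval of the difference from -13.4 to 3.45 (Fisher's exact test, two-sided, adjusted p = 0.326). The share above the bait end was 97.2%, 94.2% and 92.2% in the same order. Here 92Q differed from 10Q by -3.05 points (-9.75 to 8.77; Fisher's exact adjusted p = 0.752). Against the sgRNA-only library, the 10Q library differed by 8.33 points in plus-strand share (-1.59 to 11.5; Fisher's exact adjusted p = 0.230) and by 5.05 points in share above the bait end (-6.56 to 8.88; Fisher's exact adjusted p = 0.752). The 92Q library differed from it by 1.54 (-5.44 to 6.21) and 2.00 points (-4.69 to 6.39; Fisher's exact adjusted p = 0.752 for both). Differences of any size within these intervals were compatible with the junctions counted. All 12 Fisher tests of this window were adjusted together.

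Distances were short. The median over junctions was 111 bp in 10Q cells (exact 95% interval 59 to 420), 165 bp in 92Q cells (119 to 254) and 358 bp in sgRNA-only cells (314 to 411). The middle of the distribution ran from 39.75 to 441.75 bp in 10Q cells, from 47.5 to 454.5 bp in 92Q cells and from 132.75 to 900.75 bp in sgRNA-only cells, as lower and upper quartiles. The sgRNA-only interval of the median lay above that of 92Q and inside that of 10Q. The median read lay at 82 bp in 10Q cells, 55 bp in 92Q cells and 57 bp in sgRNA-only cells.

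**Figure D2:**
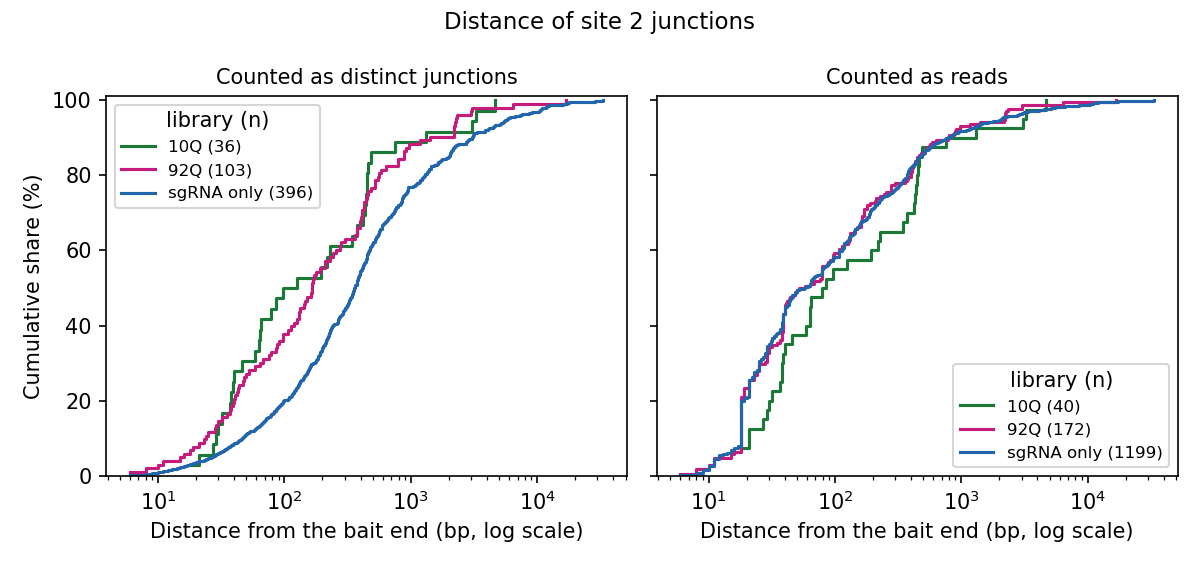
Cumulative share (%) of site 2 junctions (left) and of their reads (right) within a given distance of the bait end (bp, log scale), one line for each targeted library. Counted as junctions the sgRNA-only line runs to the right of the others, with a median of 358 bp against 111 and 165 bp, and counted as reads the 92Q and sgRNA-only lines lie almost on each other, with medians of 55 and 57 bp.

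Beyond 1 kb lay 4 of 36 junctions in 10Q cells (11.1%, 3.11 to 26.1), 12 of 103 in 92Q cells (11.7%, 6.17 to 19.5) and 92 of 396 in sgRNA-only cells (23.2%, 19.2 to 27.7). The ataxin-7 libraries differed from each other by 0.54 points (-14.5 to 10.7; Fisher's exact adjusted p = 1). The 92Q library lay 11.6 points below the sgRNA-only library (interval of the difference -18.1 to -3.03), with an adjusted p of 0.0284 by Fisher's exact test. The 10Q library lay 12.1 points below it (-20.1 to 2.61; Fisher's exact adjusted p = 0.280). The 92Q call was lost when reads were equal. At full reads with positions within 5 bp merged, the difference was -37.3 points (Fisher's exact adjusted p = 3.14e-06). This merging was chained: a run of positions with no gap above 5 bp became 1 junction, whatever its length. The 80 sgRNA-only positions from 6 to 99 bp above the bait end, with 698 reads, thus became 1 junction. Merging left 57 of 103 junctions in 92Q cells and 152 of 396 in sgRNA-only cells, so it removed a larger part of the deeper library. After that merging, expected shares beyond 1 kb at 40 reads were 15.1% in 92Q cells and 26.4% in sgRNA-only cells, next to 16% in 10Q cells. Without merging, the sgRNA-only library was also drawn down to the 172 reads of the 92Q library. Its expected share beyond 1 kb was 13.4% and its expected median distance 159 bp, next to 11.7% and 165 bp in 92Q cells. Counted as reads, the shares were 10% in 10Q cells, 6.98% in 92Q cells and 8.26% in sgRNA-only cells.

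Reads per junction fell with distance near the bait end and stayed close to 1 beyond 1 kb. In the sgRNA-only library, junctions 6 to 20 bp from the bait end had 17.9 reads each on average, those at 21 to 99 bp 6.79, those at 100 to 199 bp 2.89, those at 200 to 499 bp 1.56 and those at 1001 to 5000 bp 1.08. The 92Q library showed the same order over the first classes, with 5, 2, 1.28 and 1.05 reads per junction. In the 10Q library the nearest class was a single junction with 3 reads, and the next had 1.12 reads per junction. Beyond 1 kb, 7 of 92 sgRNA-only junctions had 2 or more reads (2 each), and 0 of 12 in 92Q cells and 0 of 4 in 10Q cells did.

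Over all distances, reads per junction averaged 1.11 in 10Q cells, 1.67 in 92Q cells and 3.03 in sgRNA-only cells, with a median of 1 in each. Junctions with 2 or more reads made up 8.33% (1.75 to 22.5), 22.3% (14.7 to 31.6) and 38.4% (33.6 to 43.4). Repeated reads were found almost entirely in the deletion-like class: all 3 such junctions in 10Q cells, all 23 in 92Q cells and 151 of 152 in sgRNA-only cells were on the plus strand above the bait end. The exception had 2 reads on the plus strand (signed distance -502 bp). That class held 97.2%, 92.2% and 89.4% of all junctions in the 10Q, 92Q and sgRNA-only libraries, so the 10Q and 92Q counts lie near its share. All 33 minus-strand junctions of the sgRNA-only library and all 7 of the 92Q library had 1 read. Of all junctions, 61.6% and 77.7% had 1 read in these libraries, and neither contrast was tested.

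At equal reads the numbers of distinct junctions depended on how positions were counted. Drawn down to the 40 reads of the 10Q library, the expected number was 31.2 ± 2.34 in 92Q cells and 32.0 ± 2.48 in sgRNA-only cells (mean ± SD of the draw, from the exact formula), against 36 observed in 10Q cells. The 10Q value lay above both, and with 1 library a condition there is no test of this difference. With positions within 5 bp merged in each full library before the draw, 40 reads gave an expected 18.2 and 12.5 distinct junctions, against 25 observed in 10Q cells. Merging was thus done at unequal depth, so these merged numbers are not a comparison at equal reads. At the 172 reads of the 92Q library the sgRNA-only library was expected to hold 105 ± 5.36 junctions, against 103 observed. Drawn over all reads of each library instead, on-cut and off-cut, 118 reads gave 36 member junctions in 10Q cells, 48.0 ± 3.84 in 92Q cells and 64.8 ± 4.67 in sgRNA-only cells. That order follows the share of all reads that members took in each library.

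**Figure D3:**
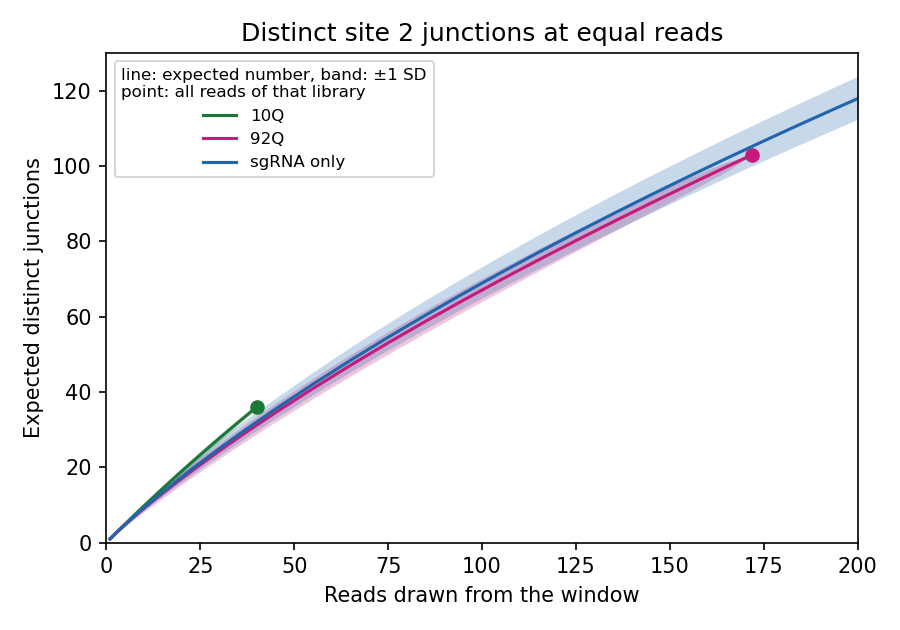
Expected number of distinct site 2 junctions (vertical) when the reads given on the horizontal axis are drawn from a library's member reads, with bands of ±1 SD of the draw and a point at each library's full reads; the sgRNA-only line goes on beyond 200 reads. The 92Q point, 103 junctions from 172 reads, lies within the sgRNA-only band, and the 10Q point, 36 from 40, lies above both lines.

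The other measures at 40 reads were as follows. Expected medians were 107 bp in 92Q cells and 107 bp in sgRNA-only cells, next to 111 bp in 10Q cells. Expected shares beyond 1 kb were 8.95% and 10.3%, next to 11.1%. Expected plus-strand shares were 94.8% and 96.6%, next to 100%. Outward junctions were expected at 97.8% in both, next to 97.2%.

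The same positions were used again and again. The commonest junction in each targeted library was the plus-strand position 52181680, 18 bp above the bait end. It had 3 of 40 reads in 10Q cells (7.5%), 25 of 172 in 92Q cells (14.5%), 145 of 1199 in sgRNA-only cells (12.1%) and 0 of 3 in the non-targeting library. The neighbouring positions at 17 and 19 bp had 7 and 8 reads in the sgRNA-only library, so the peak was 1 base wide. The position at 21 bp (52181683) came next in the sgRNA-only library with 54 reads. It had 2 reads in 10Q cells, level with 38 bp, and 4 in 92Q cells, fewer than 39 bp (8) and 79 bp (6). The positions at 38, 39 and 40 bp formed a block with 2, 1 and 1 reads in 10Q cells, 4, 8 and 4 in 92Q cells, and 21, 26 and 23 in sgRNA-only cells. Farther out, 79 bp (52181741) had 6 reads in 92Q cells and 17 in sgRNA-only cells, more than its immediate neighbours there, and 1 in 10Q cells, like several other positions of that library.

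**Figure D4:**
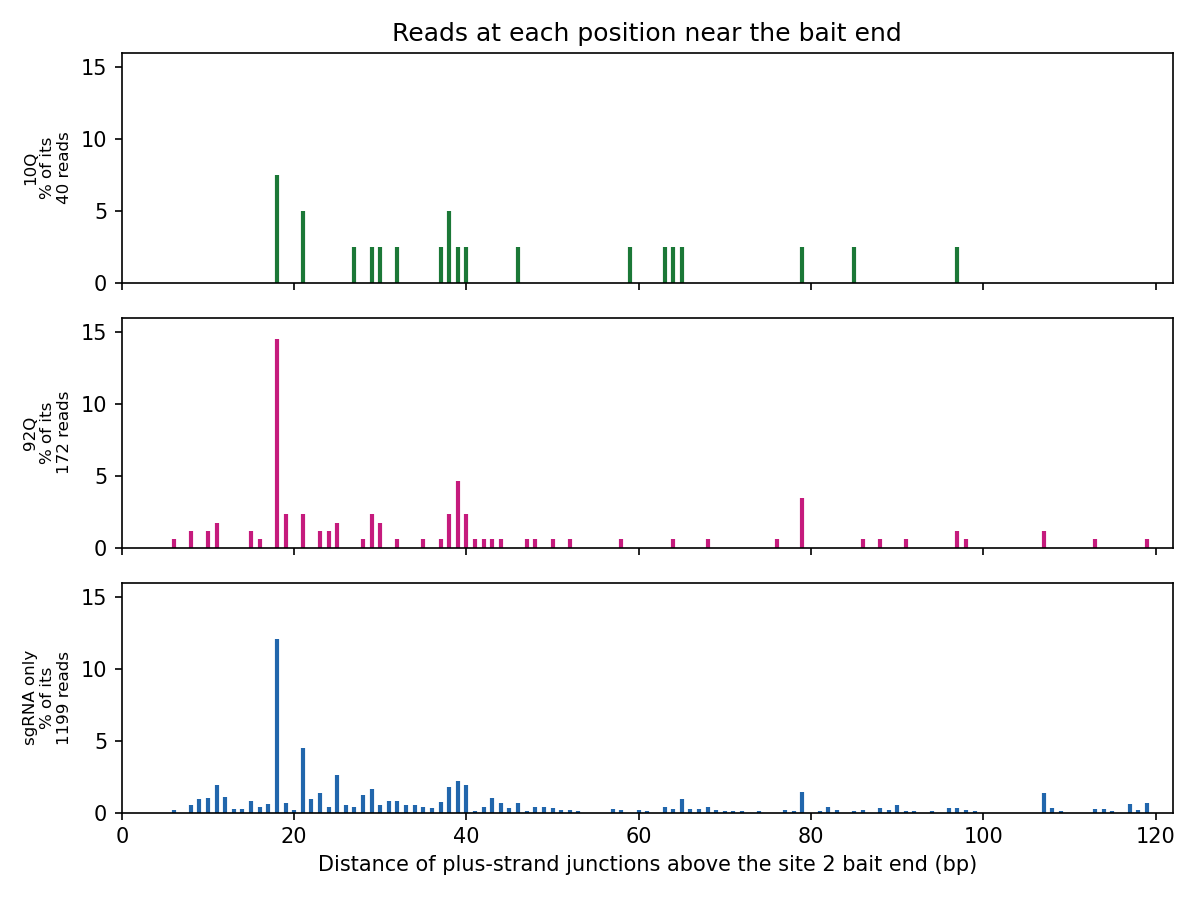
Share of each library's member reads (%) that begin at each plus-strand position from 6 to 120 bp above the bait end, in panels for the 10Q, 92Q and sgRNA-only libraries. The line at 18 bp is the tallest in all 3 panels, at 7.5%, 14.5% and 12.1%, and lines at 21, 38 to 40 and 79 bp recur.

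Some positions used in the sgRNA-only library had few or no reads in the smaller libraries, which hold fewer reads in all. The position at 25 bp had 31 reads in sgRNA-only cells, 3 in 92Q cells and 0 in 10Q cells, and that at 11 bp had 23, 3 and 0. As shares of member reads, the sgRNA-only and 92Q values were 2.59% and 1.74% at 25 bp, and 1.92% and 1.74% at 11 bp. The position at 19 bp had 4 reads in 92Q cells, 8 in sgRNA-only cells and 0 in 10Q cells. Its share was higher in 92Q cells (2.33%) than in sgRNA-only cells (0.667%). The 10Q library had 40 reads in all, and no difference at single positions was tested.

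All 3 targeted libraries shared 14 positions, and all 14 were plus-strand junctions 18 to 447 bp above the bait end: 18, 21, 29, 30, 32, 37, 38, 39, 40, 64, 79, 97, 228 and 447 bp. They took 45% of member reads in 10Q cells (18 of 40), 37.8% in 92Q cells (65 of 172) and 28.6% in sgRNA-only cells (343 of 1199). None of them occurred in the non-targeting library, but its 3 member reads were too few for this absence to tell anything. Between pairs, 15 positions were common to 10Q and 92Q (41.7% of the 10Q junctions and 14.6% of the 92Q junctions). For 10Q and sgRNA only the number was 25 (69.4% and 6.31%), and for 92Q and sgRNA only 65 (63.1% and 16.4%). Every shared position was on the plus strand above the bait end, the farthest at 798 bp. The sgRNA-only library used 80 of the 94 positions from 6 to 99 bp above the bait end, against 39 in 92Q cells and 18 in 10Q cells. Shared positions were thus counted in a stretch that the sgRNA-only library had nearly filled. Across the series 3 read names occurred in a pair of libraries, 2 of them in the 92Q and sgRNA-only libraries of site 2. None was a member junction.

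By gene, the window was filled almost wholly by Supt16. All 36 junctions in 10Q cells lay in its body, as did 102 of 103 in 92Q cells, 391 of 396 in sgRNA-only cells and all 3 of the non-targeting library. The gene table used gives gene bodies without exons, so exonic and intronic positions were not told apart. Chd8 (52198151 to 52258042), which encodes a chromatin remodeller of the CHD family, held 1 junction in 92Q cells at 52198469 and 3 in sgRNA-only cells. One of the 3, at 52210536, also lay in the lncRNA gene Gm26590 (52204909 to 52213856). Rpgrip1 (52104241 to 52161339), which encodes a photoreceptor ciliary protein, held the farthest sgRNA-only junction, 33393 bp below the bait end at 52148269, with 1 read of mapping quality 0. Another sgRNA-only junction, at 52197698, lay in no gene body. The farthest 10Q junction was at 52186310, inside Supt16.

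Mapping quality was not tested between libraries. An alignment with a mapping quality of at least 30 was present in 25 of 36 junctions in 10Q cells (69.4%, 51.9 to 83.7), 64 of 103 in 92Q cells (62.1%, 52.0 to 71.5) and 298 of 396 in sgRNA-only cells (75.3%, 70.7 to 79.4). The aligned length was 162 bp, the commonest value in each library, in 62.5% of member reads in 10Q cells (45.8 to 77.3), 52.3% in 92Q cells (44.6 to 60.0) and 62.3% in sgRNA-only cells (59.5 to 65.1).

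Junctions around the Supt16 cut lay nearer the bait end than those around the site 1 cut in Dach1, a transcription factor gene on the same chromosome (bait end 98168726, mm10), in the same window. Site 1 held 2283, 197 and 1896 such junctions in its 10Q, 92Q and sgRNA-only libraries. The share beyond 1 kb was 11.1% at site 2 and 71.9% at site 1 in 10Q cells, a difference of -60.8 points (-67.7 to -46.4; Fisher's exact adjusted p = 2.61e-13). In 92Q cells it was 11.7% and 58.4%, a difference of -46.7 points (-55.0 to -36.4; Fisher's exact adjusted p = 3.43e-15). In sgRNA-only cells it was 23.2% and 73.1%, a difference of -49.9 points (-54.2 to -45.0; Fisher's exact adjusted p = 1.24e-75). At equal member reads the differences were -39.9, -45.6 and -42.6 points (Fisher's exact test on rounded expected numbers, adjusted p = 0.000806, 2.57e-13 and 3.93e-43). These p-values treat expected numbers as if they were counts, and they do not cover the spread of the draw. Counted as reads they were -40.1, -46.4 and -49.3 points. The site 1 sgRNA-only library rests on its label, since the series' design text names the site 2 sgRNA for that experiment.

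Site 2 held a larger share of its junctions close to the bait end. In 10Q cells 1 of 36 junctions lay at 6 to 20 bp and 17 at 21 to 99 bp, against 14 and 45 of 2283 at site 1. In sgRNA-only cells the 21 to 99 bp class held 16.7% of junctions (13.1 to 20.7) at site 2 and 1.79% (1.24 to 2.50) at site 1. The class from 1001 to 5000 bp held 16.7% (13.1 to 20.7) and 50.9% (48.7 to 53.2). Median distances at site 1 were 1966 bp in 10Q cells, 1194 bp in 92Q cells and 1826.5 bp in sgRNA-only cells. The bait end read upward at both sites, and the plus-strand class above it held 72.6%, 75.1% and 75.1% of the site 1 junctions in the 10Q, 92Q and sgRNA-only libraries, against 97.2%, 92.2% and 89.4% at site 2, a difference that was not tested. Distances at each site are counted from its own bait end, and how far each bait end lies from its cut was not determined.

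**Figure D5:**
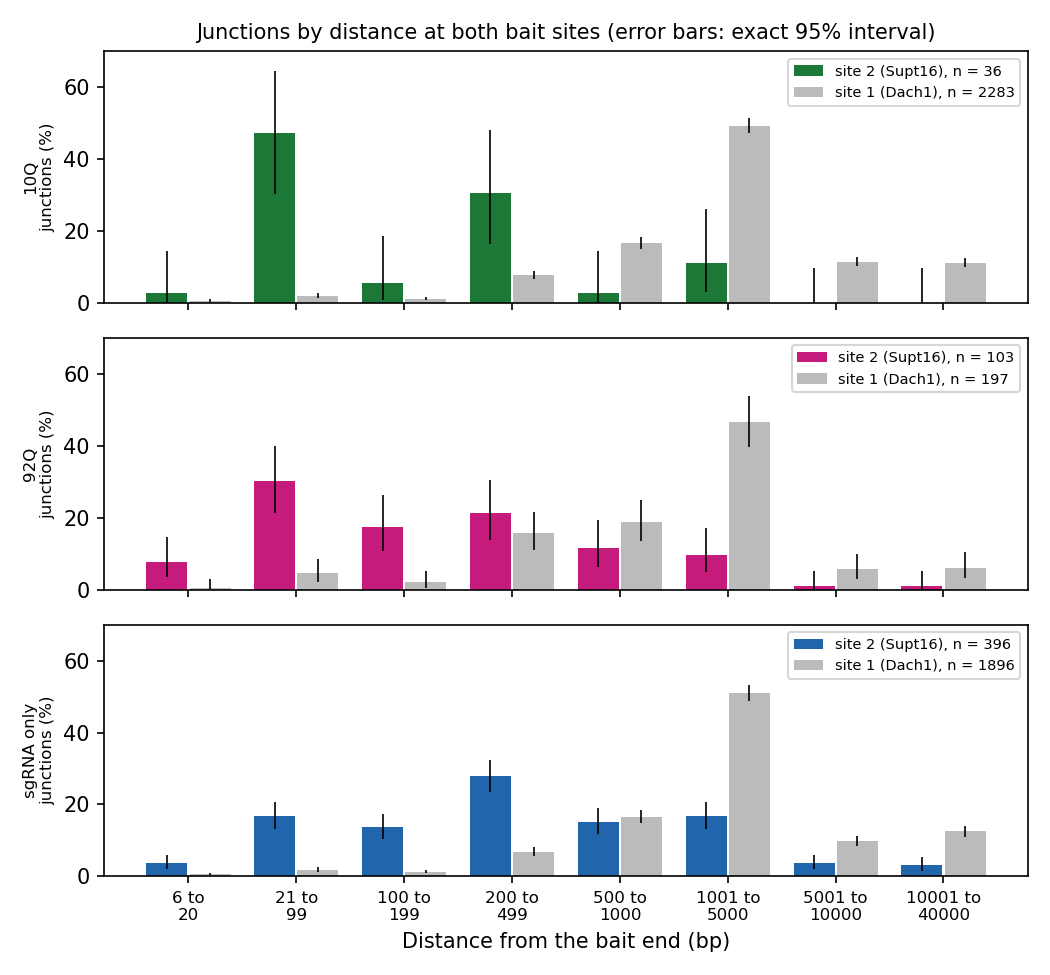
Share of junctions (%) in 8 distance classes (bp) from the bait end, site 2 in colour and site 1 in grey, with exact 95% intervals as error bars and a panel for each targeted library. Site 1 is highest at 1001 to 5000 bp in all 3 panels, whereas site 2 is highest at 21 to 99 bp in 10Q and 92Q cells and at 200 to 499 bp in sgRNA-only cells.

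The 92Q library lay 0.54 points above the 10Q library in share beyond 1 kb at site 2, and differed from it by -13.5 points at site 1. Counted as reads, the site 1 direction turned, with 50.1% beyond 1 kb in 10Q cells and 53.4% in 92Q cells. At site 2 it turned as well, with 10% and 6.98%. Over junctions, the difference between these effects did not pass the test (exact test of equal odds ratios, p = 0.389).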

How the data were processed

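Each deposited list holds 1 aligned read per line with chromosome, start, end, strand and a mapping quality score between 0 and 42. The authors deposited on-cut and off-cut lists separately. Per the submitters' processing notes the tools include Bowtie2 and the builds are mm10 and mm9, with no version or role. Not given in the sources used here are filters, duplicate removal and the on-cut rule. Genes came from a RefSeq table of GRCm38.p6 (mm10). From the lists, 5′ ends were collapsed to distinct junctions by position and strand. Values at equal reads are exact hypergeometric expectations, with no random draw. Shares carry Clopper-Pearson 95% intervals, differences Newcombe intervals and medians binomial order-statistic intervals. Libraries were compared by 12 Fisher's exact tests, two-sided, adjusted together by Benjamini-Hochberg (Python 3.11.15, SciPy 1.17.1), with 0.05 as the threshold. The functions were tested on simulated data. Named junctions are the 5 with the most reads and the farthest in each targeted library, those of the non-targeting library, and positions in all 3 targeted libraries. Members and tests were chosen with earlier results of these data known. The draw to 92Q reads and the test between sites were added after the values were seen, as were junctions otherwise singled out by position. Alternatives changed the mapping quality minimum, the merging of neighbouring positions, the reads required, the unit counted, the window limits and the distance limit, and left out positions near non-targeting junctions. Merging was chained along each strand and side, so a run with no gap above 5 bp counted as 1 junction.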

Additional observations from a re-analysis of the deposited data

Results flagged for a closer look

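Junctions of the off-cut lists were not counted as members above, though their reads entered the totals of all reads. The off-cut list of the sgRNA-only library held 1 junction inside the 40000 bp window, at 38999 bp on the plus strand with 1 read. The non-targeting off-cut list held 0 there, as did those of 10Q and 92Q.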

How the results depend on the processing

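Values are given in percentage points for differences between shares. The site 2 to site 1 differences kept direction and call under every alternative run, except 10Q with 2 or more reads (-63.7 points, 3 junctions around the Supt16 cut, adjusted p = 0.193 by Fisher's exact test). The 92Q against sgRNA-only difference beyond 1 kb kept its direction but lost the call with mapping quality 30 (-7.63), 2 or more reads (-4.61), reads counted (-1.28), an inner limit of 21 bp (-11.5), an outer limit of 10000 bp (-10.0), equal reads (-1.34) and a distance limit of 5000 bp (-4.62). It kept the call with positions within 5 bp merged (-37.3) and with a limit of 500 bp (-15.1). The 10Q against sgRNA-only difference passed the test with positions within 5 bp merged (-40.6 beyond 1 kb and 20.4 in plus-strand share) and with a limit of 500 bp (-24.5). It turned with reads counted (1.74) and at equal reads (0.82). The 92Q against 10Q difference beyond 1 kb turned with reads counted (-3.02), an outer limit of 10000 bp (-0.33) and equal reads (-2.16). The 92Q against sgRNA-only differences turned with reads counted (-1.32 plus strand, -0.82 higher side) and at equal reads (-1.78 and -1.14). Causes were not tested, beyond fewer junctions or reads where a setting removes them.

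Junction numbers moved with mapping quality 30 (64 with 92Q, 1 non-targeting), with merging (57 with 92Q, 152 with the sgRNA alone), with 2 or more reads (3, 23 and 152 with 10Q, 92Q and sgRNA only, 0 non-targeting) and as reads (172 and 1199 with 92Q and sgRNA only). Median distances moved with merging (414 and 1264.5 bp for 92Q and sgRNA only) and with 2 or more reads (21, 30 and 131 bp for 10Q, 92Q and sgRNA only). Those of 92Q and sgRNA only also moved as reads (55 and 57 bp) and at equal reads (107 bp in both). The 10Q median was 372 bp with merging and 64 bp with mapping quality 30, both inside its interval of 59 to 420 bp. With positions merged in each full library before the draw, distinct junctions at 40 reads were 25 with 10Q and an expected 18.2 and 12.5. Merged reads per junction were 3.02 and 7.89 with 92Q and sgRNA only. Drawn over all reads, the expected numbers were 48.0 and 64.8. Merging joins whole runs of neighbouring positions, and longer runs where a library fills the window. The 10Q library's 40 reads limit every comparison with it. No paired analysis was possible because each condition is 1 library.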
